A study of Danio rerio with 2 samples.

Results

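The levels of 8 genes of stereocilia actin and the hair bundle were followed across zebrafish hair cells (HCs). The actin genes were *eps8a* (ENSDARG00000102128), *twf2b* (ENSDARG00000009727), *fscn2a* (ENSDARG00000059574), *fscn2b* (ENSDARG00000074396) and *xirp2a* (ENSDARG00000071113). The others were *gipc3* (ENSDARG00000053074), *strc* (ENSDARG00000105391) and *loxhd1a* (ENSDARG00000094738). They were chosen by name, and all 8 were found, 1 row each, among the 32059 features of both libraries. Cells expressing membrane GFP, which the Brn3c promoter drives in HCs, were released with trypsin, sorted from Tg(Brn3c:mGFP) larvae at 4 days post-fertilization and sequenced with the 10x Genomics 3′ v4 chemistry. There was 1 library from larvae labelled *hsd17b7*-KO, where the study used CRISPR/Cas9 and a frameshifting deletion allele, and 1 from wild-type larvae, both with the transgene and without drug treatment. The number of larvae behind each library was not given in the sources used here. HSD17B7 is an enzyme of cholesterol synthesis. The libraries were compared for HC transcript levels, which with 1 library per genotype cannot show what loss of the enzyme does.

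The hair bundle is a staircase of stereocilia, each filled with parallel actin filaments that are crosslinked, capped and kept at a set length. Mechanical deflection of the bundle opens transduction channels near the stereocilia tips, and in mouse and human several genes of bundle actin and of its extracellular links cause deafness when mutated. The lateral line of fish carries similar HCs at the body surface, in neuromasts, while the inner ear HCs (IEHCs) sit in the maculae and cristae.

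Lateral line HCs (LLHCs) were barcodes with at least 2 *myo6b* UMIs and more *lhfpl5b* than *lhfpl5a* UMIs. IEHCs were barcodes with at least 3 *myo6b* UMIs, at least 2 *lhfpl5a* UMIs and 0 *lhfpl5b* UMIs. After removal of barcodes with fewer than 500 genes or more than 20% mitochondrial UMIs, 8322 barcodes of the mutant library and 17385 of the control library remained. The inner ear gate took 636 mutant and 713 control cells with a median of 13822 and 15389 UMIs. The lateral line gate took 70 mutant and 105 control cells with a median of 12937.5 and 14994 UMIs. Levels are UMIs of a gene scaled to the total UMIs of a gate (CPM), summed over its cells. Since the 3′ chemistry counts molecules by their 3′ end, CPM was not divided by gene length. The libraries held 81920586 UMIs (mutant) and 180590990 UMIs (control) and were made with different Cell Ranger versions, which cannot be told apart from genotype. Each genotype had 1 library, so no difference between genotypes has a replicate check, no p-value is given, and all 95% intervals below cover counting error only.

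The targeted transcript did not mark the mutant library by a reduced level. *hsd17b7* stood at 301 CPM in IEHCs of the library labelled mutant and 182 CPM in IEHCs of the control library, and a 3′ count does not read the deleted bases. In both libraries, 12 of 13 HC markers were detected in the inner ear gate, where *lhfpl5b* is at 0 by the gate, and 13 of 13 in the lateral line gate. This HC list includes the gating genes *myo6b*, *lhfpl5a* and *lhfpl5b*, so part of its detection and of its sum was set by the gates. Of these, *myo6b* stood at 874 CPM in mutant and 897 CPM in control IEHCs. Detection was near complete for other lists too, with 7 of 7 inner ear supporting cell, 10 of 10 neuron, 7 of 7 skin and 10 of 10 muscle genes found in the inner ear gate of both libraries, so these counts alone do not mark HCs. The HC list summed to 8762 CPM in mutant and 5141 CPM in control IEHCs, the supporting cell list to 997 CPM and 1089 CPM, the neuron list to 522 CPM and 323 CPM, the skin list to 676 CPM and 638 CPM and the muscle list to 22.6 CPM and 110 CPM. The libraries shared 49 barcode sequences, of which 1 was an HC barcode in both. Globin UMIs, from red blood cells, made up 4.59 CPM of the mutant and 22475 CPM of the control IEHCs. The 13 stress genes summed to 37693 CPM in mutant and 28117 CPM in control IEHCs, and the 5 liver genes to 3212 CPM and 1439 CPM. The 6 pigment cell genes summed to 19.3 CPM in mutant IEHCs, with *tyrp1b* and *dct* at 0, and 422 CPM in control IEHCs. Their part in the results below was not tested, except that totals without globin and mitochondrial UMIs were run. That change left the median mutant over control log2 ratio of the members at 0.50 in IEHCs and 0.66 in LLHCs, against 0.53 and 0.69 with all UMIs.

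In HCs 7 of the 8 genes had enough UMIs for a level and 1 was near the limit. In mutant IEHCs the order of levels was *twf2b* (789 CPM, interval 771 to 808), *gipc3* (669, 653 to 686), *loxhd1a* (288, 277 to 299), *strc* (286, 275 to 297), *fscn2b* (224, 214 to 234), *xirp2a* (210, 200 to 219) and *eps8a* (10.6, 8.58 to 12.9). The neighbours *loxhd1a* and *strc* did not differ beyond their counting intervals, and those of *fscn2b* and *xirp2a* overlapped as well. In control IEHCs the order was *twf2b* (581 CPM, 567 to 594), *gipc3* (464, 452 to 476), *loxhd1a* (281, 272 to 291), *strc* (149, 142 to 156), *fscn2b* (116, 110 to 122), *xirp2a* (112, 106 to 118) and *eps8a* (15.4, 13.3 to 17.7). The 7 genes stood in the same order in both libraries, and in control IEHCs the intervals of *loxhd1a* and *strc* were apart, while those of *fscn2b* and *xirp2a* again overlapped.

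*fscn2a*, a second fascin 2 gene, was close to absent from HCs. It had 0 UMIs in 636 mutant IEHCs, where the limit set at 3 UMIs was 0.32 CPM and the exact interval ran to 0.394 CPM, and 3 UMIs in 713 control IEHCs (0.242 CPM, interval 0.0499 to 0.707). In LLHCs it had 0 UMIs in both libraries, where the 3 UMI limit was 2.96 CPM in mutant and 1.74 CPM in control cells and the exact interval ran to 3.64 CPM and 2.14 CPM. Fascin 2 crosslinks actin filaments in photoreceptors and stereocilia, and of the 2 zebrafish copies only *fscn2b* gave a measurable HC level here. The fascin 1 genes were low too, with *fscn1a* at 9.81 CPM and *fscn1b* at 0.853 CPM in mutant IEHCs, and 5.0 CPM and 0.645 CPM in control IEHCs.

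**Figure D1:**
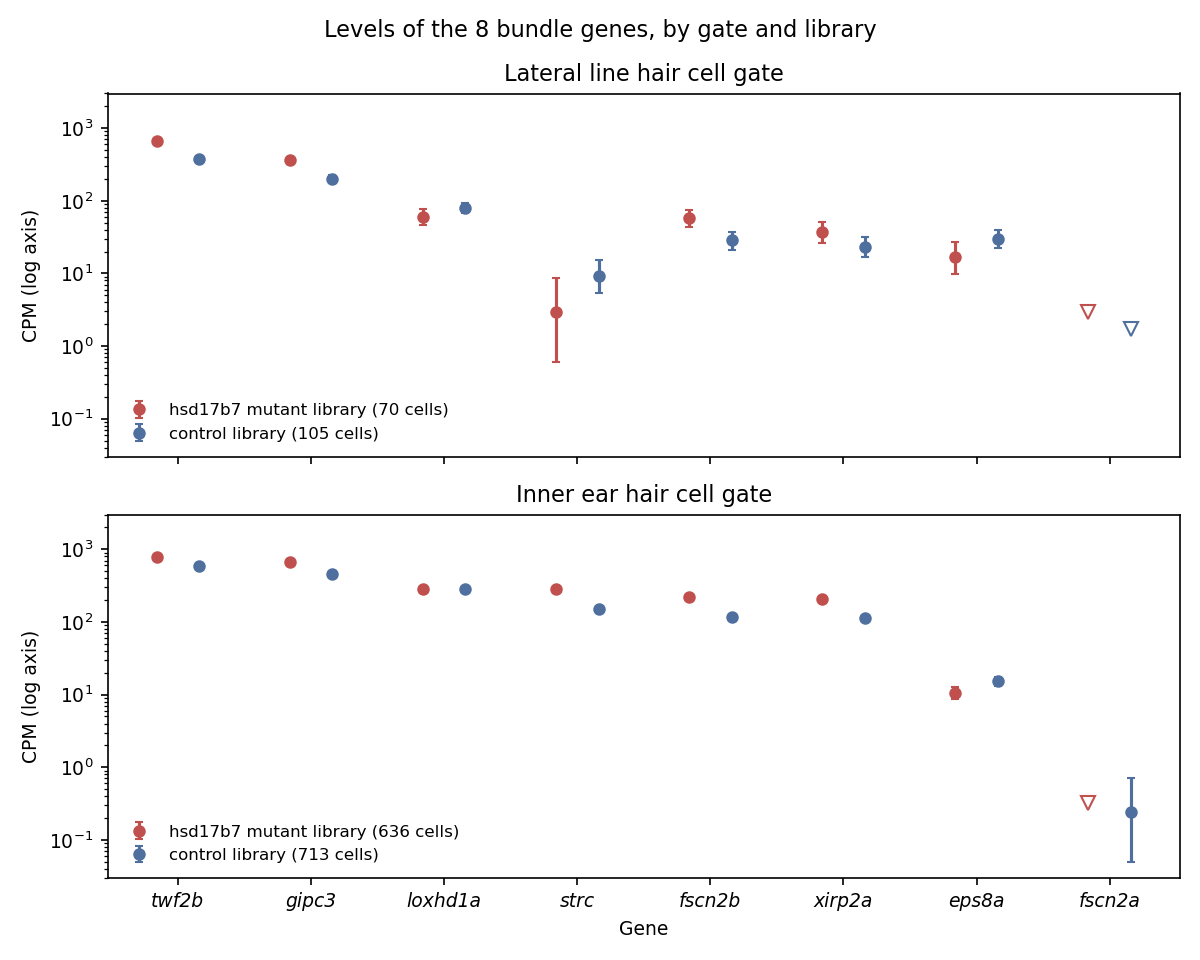
Level of each of the 8 genes in CPM on a log axis, in the lateral line gate (top, 70 mutant and 105 control cells) and the inner ear gate (bottom, 636 mutant and 713 control cells). Points are summed UMIs with exact Poisson 95% intervals, and open triangles mark the limit of 3 UMIs where a gene had 0 UMIs. *twf2b* and *gipc3* are the highest in each gate, *strc* is near the bottom only in the lateral line gate, and *fscn2a* is at the limit or at 3 UMIs.

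Among cells, the genes differed in how widely they were detected. *twf2b*, a twinfilin that binds actin monomers and caps filaments and in mouse sits at stereocilia tips, had a UMI in 98.4% of mutant and 98.5% of control IEHCs. *gipc3*, a PDZ adaptor of the family that binds myosin VI and a human deafness gene, had one in 98.1% of mutant and 99.2% of control IEHCs. *xirp2a*, a Xin repeat protein that binds actin filaments in muscle and, in mouse, in stereocilia, had one in 63.5% of mutant and 61.7% of control IEHCs. For *eps8a*, a zebrafish counterpart of the capping and bundling protein that in mouse is delivered to stereocilia tips, the share was 13.8% and 22.2%. After each cell was thinned to 4000 UMIs these shares became 85.7% and 84.4% for *twf2b*, 86.6% and 80.3% for *gipc3*, 42.2% and 34.4% for *xirp2a*, and 4.25% and 6.18% for *eps8a*. At equal depth *twf2b* and *gipc3* were still detected in far more cells than *xirp2a* and *eps8a*, while the order of *twf2b* and *gipc3* between themselves turned in both libraries. Among 354 macrophage-type barcodes of the mutant library (median 11229 UMIs), *twf2b* and *gipc3* each had a UMI in 2.54%. Among 5364 blood barcodes of the control library (median 6739.5 UMIs) the shares were 1.96% and 1.12%. The HC shares of *twf2b* and *gipc3* lay far above that background.

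Of the 7 measured genes, 4 in the mutant library and 5 in the control library were lower by at least 2-fold in LLHCs than in IEHCs. Among all features with at least 50 UMIs, 18.4% were lower by at least 2-fold in the mutant and 14.6% in the control library, and 7.47% and 8.4% were higher by that much. The median log2 ratio of LLHCs over IEHCs was -1.97 over the 7 genes in the mutant library and -1.81 in the control library. Over all features tested it was -0.23 and -0.15.

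*strc* showed the widest gap. Stereocilin is an extracellular protein that in mouse links the tops of neighbouring stereocilia and attaches the tallest row to the tectorial membrane, and its human gene is a common deafness gene. In the mutant library *strc* had 3 UMIs in 70 LLHCs (2.96 CPM) and 2677 UMIs in 636 IEHCs (286 CPM), a log2 ratio of -6.59 (interval -8.87 to -5.04). In the control library it had 16 UMIs in 105 LLHCs (9.29 CPM) and 1849 UMIs in 713 IEHCs (149 CPM), which is 16.1-fold lower in LLHCs (log2 interval -4.81 to -3.30). Of the 16 UMIs, 10 came from 1 cell, and without the cell with the most UMIs on each side the log2 ratio was -7.15 in the mutant and -5.39 in the control library. The LLHC share with a *strc* UMI was 4.29% in the mutant and 6.67% in the control library, against 5.26% and 7.55% of lateral line supporting cell type barcodes, whose median depths were 15202.5 and 17022 UMIs. The LLHC share of *strc* was thus at or below that of a cell type without bundles and was read as background. In IEHCs, 79.7% of mutant and 69.1% of control cells had a *strc* UMI.

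*xirp2a*, *loxhd1a* and *fscn2b* were several-fold lower in LLHCs than in IEHCs. *xirp2a* stood at 37.5 CPM in mutant LLHCs and 210 CPM in mutant IEHCs (log2 ratio -2.48, interval -2.99 to -2.02), and at 23.2 CPM in control LLHCs and 112 CPM in control IEHCs (-2.27, -2.76 to -1.82). *loxhd1a* is a zebrafish counterpart of a PLAT repeat protein that mouse HCs need for transduction. It stood at 60.2 CPM in mutant LLHCs and 288 CPM in mutant IEHCs (-2.26, -2.65 to -1.89), and at 80.1 CPM in control LLHCs and 281 CPM in control IEHCs (-1.81, -2.07 to -1.57). *fscn2b* stood at 57.3 CPM in mutant LLHCs and 224 CPM in mutant IEHCs (-1.97, -2.37 to -1.59), and at 28.4 CPM in control LLHCs and 116 CPM in control IEHCs (-2.03, -2.47 to -1.61). The counting intervals of these 3 ratios overlapped between the libraries. For *fscn2b* and *loxhd1a* the LLHC level lay above that of lateral line supporting cell type barcodes, where *fscn2b* was at 6.31 CPM in the mutant library and had 0 UMIs in the control library, and *loxhd1a* was at 9.46 CPM and 4.91 CPM. The LLHC level of *xirp2a* lay above that of these supporting cells (9.46 CPM mutant, 5.89 CPM control). It lay below that of macrophage-type barcodes (45.0 CPM and 41.3 CPM) and of all other barcodes (57.0 CPM and 37.0 CPM). The other barcodes included muscle-type and liver-type barcodes, where *xirp2a* was higher still, so their mean is not an even background. How much of the LLHC level came from other cells was not tested. Of the 38 *xirp2a* UMIs in mutant LLHCs, 9 came from 1 cell.

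The adaptor and the twinfilin were nearer to equal between the HC types. *gipc3* stood at 367 CPM in mutant LLHCs and 669 CPM in mutant IEHCs (log2 ratio -0.87, interval -1.02 to -0.71), and at 201 CPM in control LLHCs and 464 CPM in control IEHCs (-1.20, -1.36 to -1.05). *twf2b* stood at 669 CPM in mutant LLHCs and 789 CPM in mutant IEHCs (-0.24, -0.35 to -0.12), a gap that went to 0.01 when the median ratio of all genes was set to 0. In control LLHCs *twf2b* was at 375 CPM and in control IEHCs at 581 CPM (-0.63, -0.75 to -0.52). *eps8a* was the only measured member higher in LLHCs, with 16.8 CPM in mutant LLHCs and 10.6 CPM in mutant IEHCs (0.67, -0.17 to 1.42), and 30.2 CPM in control LLHCs and 15.4 CPM in control IEHCs (0.97, 0.50 to 1.42). The mutant interval for *eps8a* included 0.

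**Figure D2:**
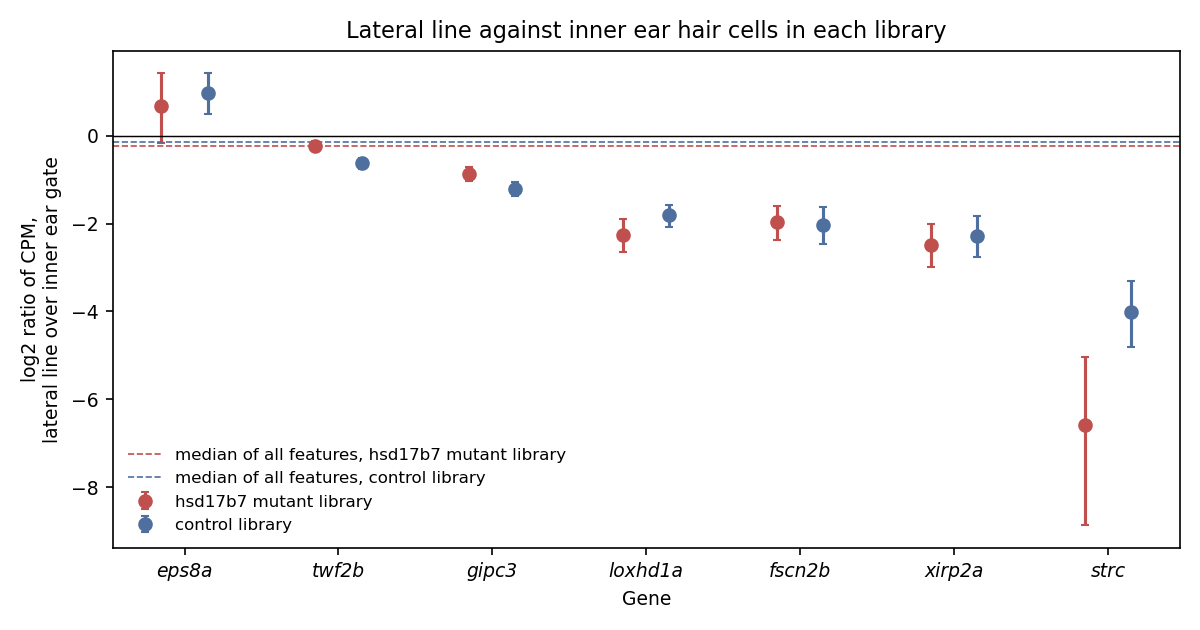
Log2 ratio of CPM in the lateral line gate over the inner ear gate for the 7 measured genes, mutant library left of control library for each gene. Bars are exact conditional binomial 95% intervals, and dashed lines are the medians of all features with at least 50 UMIs (-0.23 mutant, -0.15 control). *strc* lies lowest, at -6.59 in the mutant library, and *eps8a* alone lies above 0.

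Paralogs of the members did not all follow them. *xirp2b* was also an IEHC gene, with 7.90 CPM in mutant LLHCs and 108 CPM in mutant IEHCs (log2 ratio -3.77), and 8.70 CPM in control LLHCs and 87.1 CPM in control IEHCs (-3.32). In contrast, *loxhd1b* stood at 52.3 CPM in mutant LLHCs and 30.5 CPM in mutant IEHCs, and at 27.3 CPM in control LLHCs and 23.1 CPM in control IEHCs. *twf2a* stood at 120 CPM in mutant LLHCs and 165 CPM in mutant IEHCs, and at 83.6 CPM in control LLHCs and 103 CPM in control IEHCs. *gipc2* was at 105 CPM in mutant LLHCs and 75.0 CPM in mutant IEHCs, and at 101 CPM in control LLHCs and 63.0 CPM in control IEHCs. Thus, where the members *loxhd1a* and *gipc3* were lower in LLHCs, *loxhd1b* and *gipc2* were not. *gipc1* was under 4 CPM in each gate. *eps8b* stood at 16.8 CPM in mutant LLHCs and 31.2 CPM in mutant IEHCs, and at 4.64 CPM in control LLHCs and 11.2 CPM in control IEHCs. The Eps8 family gene *eps8l2* was higher than *eps8a* and *eps8b*. It was at 176 CPM in mutant LLHCs and 203 CPM in mutant IEHCs, and at 172 CPM in control LLHCs and 195 CPM in control IEHCs.

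A wider list of hair bundle and actin genes, without the members, had 88 symbols, of which 74 were found. Of the 62 tested in the mutant library, 6 were higher and 17 lower by at least 2-fold in LLHCs than in IEHCs (median log2 ratio -0.21). Of the 65 tested in the control library, 8 were higher and 16 lower (median -0.08). The shares over all features tested were 7.47% higher and 18.4% lower in the mutant library, and 8.4% and 14.6% in the control library. The lowest was *kncn*, which encodes kinocilin, with 1 UMI in mutant LLHCs and 3072 UMIs in mutant IEHCs (-8.38, interval -13.68 to -5.90), and 0 UMIs in control LLHCs and 1480 UMIs in control IEHCs, at least 2 to the power of 6.10 lower against a limit of 3 UMIs. *cfl1l*, a cofilin that severs actin filaments, was the highest in both libraries, at 54.3 CPM in mutant LLHCs and 11.1 CPM in mutant IEHCs (2.29) and at 129 CPM in control LLHCs and 20.5 CPM in control IEHCs (2.66). In the other barcodes *cfl1l* was at 69.1 CPM in the mutant and 49.5 CPM in the control library, so only its control LLHC level lay above them. Otogelin transcript (*otog*) was lower in mutant LLHCs (5 UMIs, 4.94 CPM) than in mutant IEHCs (124 CPM, -4.65). Its mutant LLHC level lay below that of the other mutant barcodes (10.1 CPM) and was not told apart from background. The *otog* gap was smaller in the control library, with 32.5 CPM in LLHCs and 139 CPM in IEHCs. The I-BAR gene *baiap2l2a* was lower in control LLHCs than in control IEHCs (-2.40).

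Atoh1 is the transcription factor that starts HC differentiation, and its transcript falls as HCs mature. In the inner ear gate 446 mutant and 479 control cells had at least 1 *atoh1a* UMI and 190 mutant and 234 control cells had 0. The gate held 285 CPM of *atoh1a* in the mutant and 142 CPM in the control library. Of the 7 measured members, 2 in the mutant library (*gipc3* and *eps8a*) and 1 in the control library (*gipc3*) had a log2 ratio of *atoh1a*-positive over *atoh1a* 0 IEHCs above 0, against 53% and 60.2% of all features tested. The other members had ratios below 0. Only *xirp2a*, 1 of the 7, was lower by at least 2-fold, in both libraries. Among all features tested, 4.92% were lower by at least 2-fold in the mutant and 2.2% in the control library, and 5.83% and 5.96% were higher.

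*xirp2a* stood at 133 CPM in *atoh1a*-positive and 400 CPM in *atoh1a* 0 IEHCs of the mutant library (log2 ratio -1.59, interval -1.72 to -1.46), and at 83.8 CPM and 174 CPM in the control library (-1.05, -1.21 to -0.90). *fscn2b* followed with 176 CPM in positive and 343 CPM in *atoh1a* 0 cells of the mutant (-0.96, -1.09 to -0.83) and 91.1 CPM and 169 CPM of the control library (-0.89, -1.05 to -0.74). *strc* had 237 CPM in positive and 406 CPM in *atoh1a* 0 cells of the mutant (-0.77, -0.89 to -0.66) and 125 CPM and 202 CPM of the control library (-0.70, -0.83 to -0.56). These 3 genes were thus lower in the *atoh1a*-positive cells of both libraries, each beyond its counting interval. *loxhd1a* was lower by less, at -0.45 (-0.56 to -0.33) in the mutant and -0.34 (-0.44 to -0.24) in the control library. *twf2b* was at -0.79 (-0.86 to -0.72) in the mutant and -0.29 (-0.36 to -0.22) in the control library, a larger step in the mutant library.

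*gipc3* went the other way. It stood at 758 CPM in *atoh1a*-positive and 448 CPM in *atoh1a* 0 IEHCs of the mutant library (0.76, 0.67 to 0.85), and at 501 CPM and 383 CPM in the control library (0.39, 0.31 to 0.48). *eps8a* gave 0.25 (-0.42 to 0.97) in the mutant and -0.39 (-0.83 to 0.05) in the control library, with both intervals across 0. Over the 7 genes the median was -0.77 in the mutant and -0.39 in the control library, against 0.04 and 0.11 over all features tested.

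The trends were graded over cells with 0, 1, 2 to 4 and 5 or more *atoh1a* UMIs, whose median depths lay between 12924 and 14253 UMIs in the mutant and between 14971 and 16264 UMIs in the control library. *xirp2a* stood at 400, 263, 163 and 68.1 CPM over these steps in mutant cells, and at 174, 123, 80.3 and 56.1 CPM in control cells. *fscn2b* stood at 343, 304, 182 and 127 CPM in mutant cells, and at 169, 112, 87.7 and 78.4 CPM in control cells. *gipc3* stood at 448, 539, 739 and 848 CPM in mutant cells, and at 383, 456, 483 and 570 CPM in control cells. Each of the 3 genes moved in 1 direction at every step, but some neighbouring steps had overlapping intervals. For *gipc3* these were control cells with 1 (428 to 486 CPM) and 2 to 4 *atoh1a* UMIs (461 to 505 CPM). For *fscn2b* they were control cells with 2 to 4 (78.6 to 97.5 CPM) and 5 or more (67.7 to 90.3 CPM). Mutant cells with 0 (321 to 366 CPM) and 1 *atoh1a* UMI (274 to 337 CPM) overlapped for *fscn2b* as well. For *strc* the steps were 406, 383, 301 and 145 CPM in mutant cells, and 202, 184, 107 and 101 CPM in control cells. *twf2b* ended at 499 CPM (475 to 523) in mutant and 512 CPM (484 to 541) in control cells with 5 or more *atoh1a* UMIs, where the libraries overlapped, while with 0 *atoh1a* UMIs it stood at 1129 CPM in mutant and 664 CPM in control cells. *xirp2a* also had overlapping intervals in the top *atoh1a* step, 59.6 to 77.6 CPM in mutant and 47.1 to 66.2 CPM in control cells. That step has no upper limit and was not matched between the libraries. It held 217 mutant cells with 647 CPM of *atoh1a* and 144 control cells with 421 CPM.

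**Figure D3:**
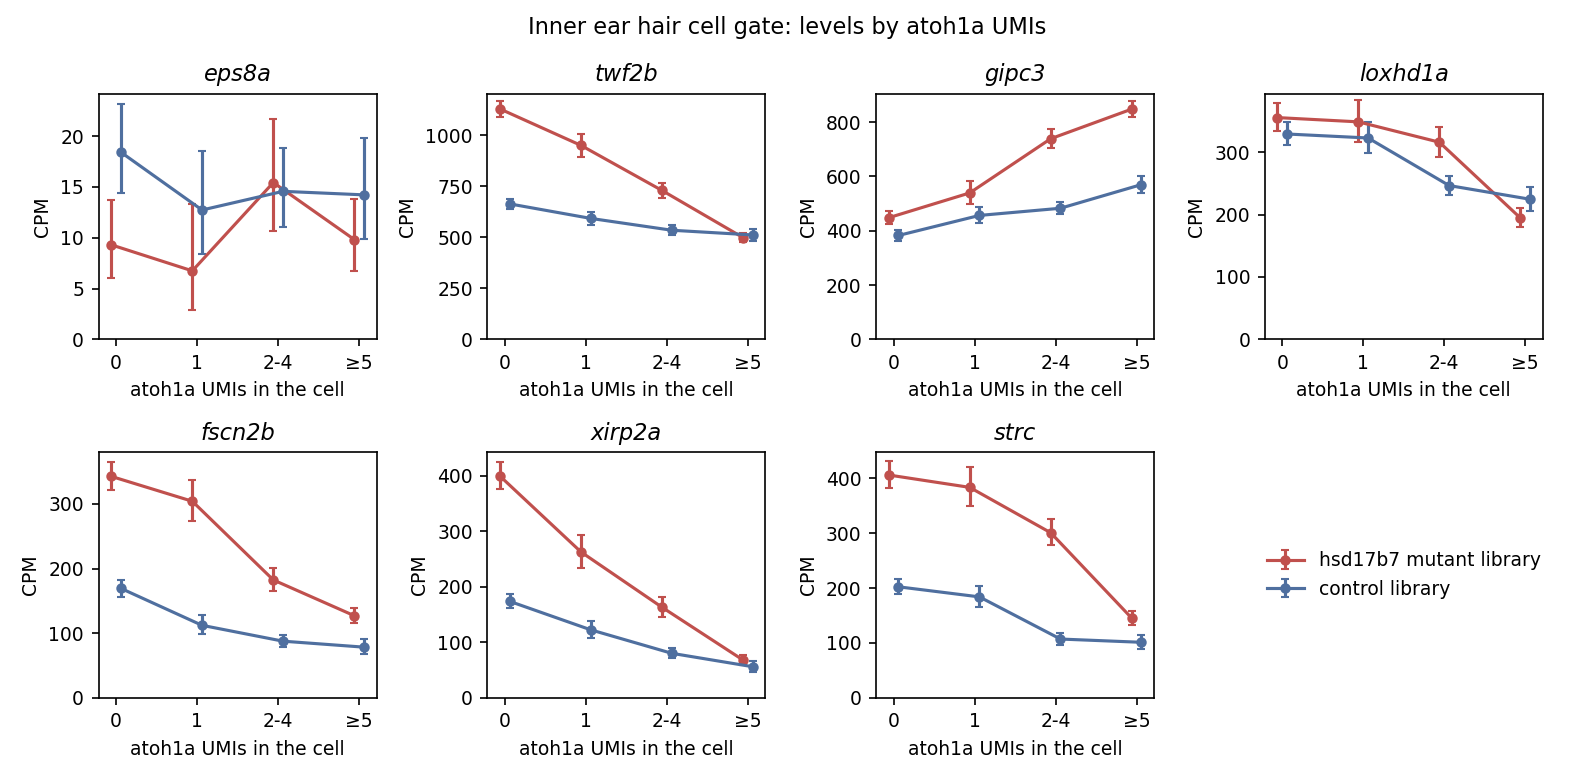
Level in CPM of the 7 measured genes in inner ear gate cells with 0, 1, 2 to 4 and 5 or more *atoh1a* UMIs, in the mutant and the control library, with exact Poisson 95% intervals. *xirp2a*, *fscn2b*, *strc* and *twf2b* are lower with more *atoh1a*, *gipc3* is higher, and the libraries lie closest in the cells with 5 or more *atoh1a* UMIs for *twf2b* and *xirp2a*.

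Among LLHCs the numbers were small, 45 mutant and 62 control cells with *atoh1a* and 25 mutant and 43 control cells with 0 *atoh1a* UMIs. *gipc3* was higher in *atoh1a*-positive LLHCs here as well, with 429 CPM in positive and 188 CPM in *atoh1a* 0 cells of the mutant library (1.19, 0.75 to 1.66) and 223 CPM and 152 CPM in the control library (0.56, 0.19 to 0.93). *xirp2a* gave -1.22 (-2.22 to -0.21) in the mutant and -0.45 (-1.43 to 0.58) in the control library, and *fscn2b* -0.60 (-1.42 to 0.26) and -0.40 (-1.28 to 0.53). *twf2b* gave -0.83 (-1.05 to -0.60) in the mutant and 0.09 (-0.16 to 0.34) in the control library. For *fscn2b* and *loxhd1a* no difference by *atoh1a* was detectable at this depth in LLHCs.

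In the wider bundle list, 3 genes were higher and 8 lower by at least 2-fold in *atoh1a*-positive IEHCs of the mutant library, of 60 tested (median -0.10), and 5 were higher and 4 lower of 65 in the control library (median 0.12). The shares over all features tested were 5.83% higher and 4.92% lower in the mutant library, and 5.96% and 2.2% in the control library. The lowest listed gene in both was the paralog *loxhd1b*, with 10.0 CPM in positive and 81.5 CPM in *atoh1a* 0 IEHCs of the mutant library (-3.02) and 7.53 CPM and 56.8 CPM in the control library (-2.91). *otog* was the highest, with log2 ratios of 2.23 in the mutant and 1.98 in the control library. The other low genes were the actin monomer binding genes *pfn1* (-2.46) and *tmsb1* (6.13 CPM in positive and 24.6 CPM in *atoh1a* 0 cells) in the mutant library, and *kncn* (-1.73) and *eps8b* (-1.14) in the control library. In the other mutant barcodes *pfn1* was at 522 CPM and *tmsb1* at 140 CPM. Both values lay above those of the *atoh1a* 0 IEHCs (163 CPM for *pfn1*, against 29.6 CPM in positive cells). The other barcodes are a mix of cell types, so their mean cannot tell the mutant IEHC levels of these 2 genes from background. How much of these levels came from other cells was not tested.

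IEHCs were also split by the calcium-binding protein genes *s100s* and *cabp5b*, with 360 mutant and 439 control cells having more *s100s* UMIs and 215 mutant and 210 control cells having more *cabp5b* UMIs. *loxhd1a* was higher on the *s100s* side, with log2 ratios of 0.70 (0.57 to 0.83) in the mutant and 0.55 (0.43 to 0.66) in the control library. *xirp2a* was lower there, at -1.16 (-1.29 to -1.03) in the mutant and -0.48 (-0.64 to -0.32) in the control library, and so was *twf2b*, at -0.81 (-0.88 to -0.74) and -0.30 (-0.37 to -0.23). *strc* was higher on the *s100s* side of the control library by 0.59 (0.43 to 0.76) and near equal in the mutant library at -0.07 (-0.19 to 0.05). The paralog *loxhd1b* went far beyond *loxhd1a*, with 48.5 CPM on the *s100s* side and 1.76 CPM on the *cabp5b* side of the mutant library, and 34.6 CPM and 3.41 CPM in the control library.

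Between the libraries, 6 of the 7 measured members had a mutant over control ratio above 0 on the log2 scale in IEHCs, against 43.8% of all features tested, and 0 of the 7 passed 2-fold. The median log2 ratio of mutant over control was 0.53 over the members and -0.13 over the 14815 features tested, of which 5.4% were higher and 19.3% lower by at least 2-fold. A higher level was not particular to the members. The HC list summed to 8762 CPM in mutant and 5141 CPM in control IEHCs. The mGFP reporter stood at 1178 and 697 CPM and *atoh1a* at 285 and 142 CPM, while *myo6b* was at 874 and 897 CPM. *fscn2b* was 1.93-fold higher (224 CPM in mutant and 116 CPM in control IEHCs, log2 ratio 0.95, interval 0.85 to 1.05), *strc* 1.92-fold (286 and 149 CPM, 0.94, 0.85 to 1.02) and *xirp2a* 1.87-fold (210 and 112 CPM, 0.90, 0.80 to 1.00). *gipc3* was 1.44-fold higher (669 and 464 CPM, 0.53, 0.48 to 0.58) and *twf2b* 1.36-fold (789 and 581 CPM, 0.44, 0.40 to 0.49). *eps8a* was 1.46-fold lower in mutant IEHCs (10.6 and 15.4 CPM, -0.54, -0.91 to -0.19). Its IEHC level was low, but above that of the other barcodes (5.57 CPM mutant, 6.01 CPM control). Inner ear supporting cell type barcodes had 3.31 CPM of *eps8a* in the mutant library, from 2 UMIs, and 5.75 CPM in the control library. *loxhd1a* stood at 288 and 281 CPM (0.03, -0.04 to 0.11), and its sign turned when cells were averaged (-0.05) or thinned to 4000 UMIs (-0.02). The ratios of *strc*, *fscn2b* and *xirp2a* had overlapping intervals, all above those of *gipc3*, *twf2b* and *loxhd1a*. With the median ratio of all genes set to 0, *strc* (1.00) and *fscn2b* (1.02) passed 2-fold. The gates left out 250 HC-type barcodes of the mutant and 77 of the control library. These held 28.7% of the kept *strc* UMIs in the mutant and 8.20% in the control library, and 22.2% and 4.60% of those of *loxhd1a*. The library ratios therefore describe gated cells only, and the part of this uneven capture was not tested.

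The same ratios were taken within subsets of the inner ear gate. In *atoh1a* 0 IEHCs *xirp2a* was 2.30-fold higher (log2 interval 1.06 to 1.34), and the mutant over control log2 ratio was 1.02 for *fscn2b* (0.87 to 1.16), 1.00 for *strc* (0.87 to 1.14) and 0.11 for *loxhd1a* (-0.01 to 0.23). In *atoh1a*-positive IEHCs it was 0.67 for *xirp2a* (0.52 to 0.81), 0.95 for *fscn2b* (0.82 to 1.08), 0.93 for *strc* (0.82 to 1.04) and 0.01 for *loxhd1a* (-0.08 to 0.10). The mutant library was thus the higher for *strc*, *fscn2b* and *xirp2a* with and without *atoh1a* transcript, apart from *xirp2a* in cells with 5 or more *atoh1a* UMIs, where the intervals overlapped. On the *cabp5b* side of the gate the ratios were 1.42 for *strc* (1.25 to 1.60), 1.33 for *fscn2b* (1.15 to 1.52) and 1.28 for *xirp2a* (1.12 to 1.43), and on the *s100s* side 0.76 (0.66 to 0.87), 0.77 (0.65 to 0.89) and 0.60 (0.46 to 0.73). For these 3 genes the intervals of the sides did not overlap, so the libraries were further apart in cells with more *cabp5b*. In the 61 mutant and 64 control cells with equal *s100s* and *cabp5b* UMIs, *xirp2a* was level, at 33.8 CPM (22.3 to 49.2) in mutant and 33.6 CPM (23.1 to 47.2) in control cells. *fscn2b* stood there at 101 CPM (80.5 to 126) in mutant and 40.7 CPM (29.1 to 55.4) in control cells. *eps8a* was lower in the mutant library in the 2 *atoh1a* subsets and on the *s100s* and *cabp5b* sides, from -0.99 (-1.70 to -0.31) in *atoh1a* 0 cells to -0.34 (-0.78 to 0.09) in *atoh1a*-positive cells. These *eps8a* ratios rest on low levels, with 9.30 CPM in mutant and 18.4 CPM in control *atoh1a* 0 cells.

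In LLHCs 4 of the 6 members with at least 50 UMIs had a log2 ratio above 0, against 44.2% of all features tested. *twf2b* was 1.79-fold higher (669 CPM in mutant and 375 CPM in control LLHCs, log2 ratio 0.84, interval 0.68 to 0.99), *gipc3* 1.82-fold (367 and 201 CPM, 0.87, 0.65 to 1.08) and *fscn2b* 2.01-fold (57.3 and 28.4 CPM, 1.01, 0.44 to 1.59). *xirp2a*, whose LLHC level lay below that of all other barcodes, gave 0.69 (37.5 and 23.2 CPM, 0.01 to 1.37), or 0.54 without its highest cell in each library. *eps8a* was 1.80-fold lower (16.8 and 30.2 CPM, -0.85, -1.73 to -0.03). *loxhd1a* gave -0.41 (60.2 and 80.1 CPM, -0.87 to 0.03), which was 0.07 after thinning. For *strc*, at background here, 3 and 16 UMIs gave -1.65 with an interval of -4.07 to 0.16. Of these 6 members, 1 passed 2-fold (*fscn2b*, higher), against 8.1% of all features higher and 19.4% lower by at least 2-fold. The median was 0.69 over the 7 members with a ratio, *strc* at background included, and -0.13 over the 6458 features tested. Globin UMIs were at 0 CPM in mutant and 22109 CPM in control LLHCs, and the liver genes summed to 4280 CPM and 1457 CPM. Other markers differed within LLHCs as well. *stm*, which the study used as a general supporting cell marker, stood at 325 CPM in mutant and 2437 CPM in control LLHCs. The HC gene *pvalb8* stood at 31084 CPM and 6103 CPM there. The part of these markers in the result was not tested.

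**Figure D4:**
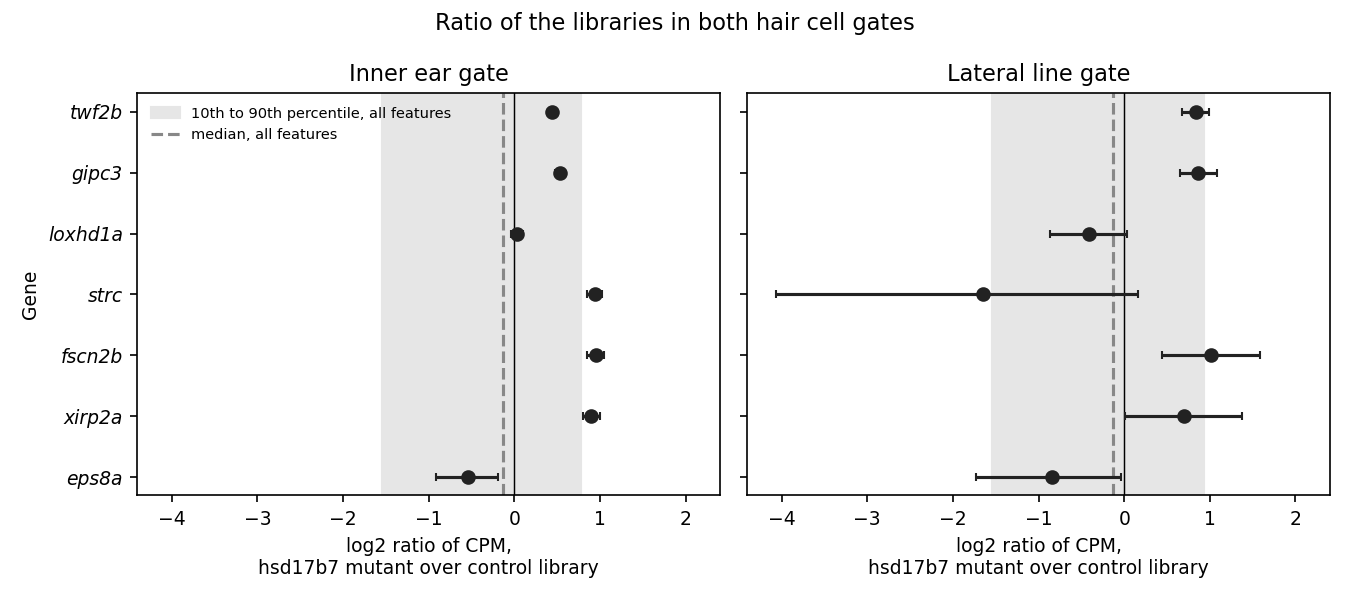
Log2 ratio of CPM, mutant library over control library, for the 7 measured genes in the inner ear gate (left) and the lateral line gate (right), with exact conditional binomial 95% intervals. Grey bands span the 10th to the 90th percentile of all features with at least 50 UMIs and dashed lines their median (-0.13 in both). *strc*, *fscn2b* and *xirp2a* lie between 0.90 and 0.95 in the inner ear gate, *loxhd1a* at 0.03 and *eps8a* at -0.54.

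In the wider bundle list, 3 of 66 tested genes were higher and 10 lower by at least 2-fold in IEHCs of the mutant library (median -0.03), and in LLHCs 4 of 47 were higher and 12 lower (median -0.11). The shares over all features tested were 5.4% higher and 19.3% lower in IEHCs, and 8.1% and 19.4% in LLHCs. The 3 highest in IEHCs were the gelsolin gene *gsnb* (34.9 CPM in mutant and 12.1 CPM in control cells, log2 ratio 1.53), *eps8b* (31.2 and 11.2 CPM, 1.48) and *kncn* (328 and 119 CPM, 1.46). These 3 genes stood above the other barcodes in both libraries, where *gsnb* was at 9.16 CPM in the mutant and 2.98 CPM in the control library, *eps8b* at 3.35 CPM and 1.57 CPM and *kncn* at 14.2 CPM and 2.50 CPM. The 3 lowest were the pointed-end capping gene *tmod4* (5.97 and 30.6 CPM, -2.35), *gsna* (3.31 and 13.4 CPM, -2.02) and the formin gene *diaph3* (4.37 and 17.0 CPM, -1.96). All 3 were lower in IEHCs than in the other barcodes of the same library, where *tmod4* was at 9.62 CPM in the mutant and 87.2 CPM in the control library, *gsna* at 25.4 CPM and 28.1 CPM and *diaph3* at 31.1 CPM and 36.1 CPM, so their IEHC levels were not told apart from background. In LLHCs the highest were *baiap2l2b* (1.23), *pjvk* (1.21) and *gsnb* (1.18), and the lowest *msna* (-2.76), *otog* (-2.72) and *tpm4a* (-2.63). In the other barcodes *msna* was at 50.9 CPM in the mutant and 71.5 CPM in the control library and *tpm4a* at 33.1 CPM and 92.0 CPM, above the LLHC level of both genes. *otog* was at 10.1 CPM in the other mutant barcodes, above its mutant LLHC level (4.94 CPM). In the control library it was at 11.1 CPM in the other barcodes and 32.5 CPM in LLHCs.

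Outside the gates, 7616 mutant and 16567 control barcodes remained, with median depths of 5848.5 and 7271 UMIs. All 7 measured members were higher by at least 2-fold in HCs than in the other barcodes in both libraries, against 14.6% of all features in the mutant and 16.7% in the control library, and 35.6% and 23.1% were lower. The log2 ratio of HCs over other barcodes was 4.73 in the mutant and 5.60 in the control library for *gipc3*, 4.35 and 5.32 for *twf2b*, 4.33 and 4.81 for *fscn2b*, 3.61 and 4.75 for *loxhd1a*, and 3.17 and 4.38 for *strc*. It was only 1.76 and 1.46 for *xirp2a*, and 1.00 and 1.52 for *eps8a*. With *fscn2a* at its limit of -0.52 the mutant median was 3.39 (3.61 without it), and the control median was 4.56, with *fscn2a* at -1.36 (-3.66 to 0.24). Over all features the medians were -0.31 and 0.03. In the wider list 36 of 73 tested genes were higher and 21 lower in the mutant library, and 36 of 74 higher and 17 lower in the control library.

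Other barcodes were sorted into classes by the marker lists, a rule set after the data had been seen. They included HCs that the gates did not take, 250 in the mutant and 77 in the control library, in which *strc* stood at 722 CPM and 378 CPM, above its gated IEHC level in both. *loxhd1a* was at 512 CPM in those mutant cells and 379 CPM in those control cells. The values for other barcodes above therefore contain HC transcripts.

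**Figure D5:**
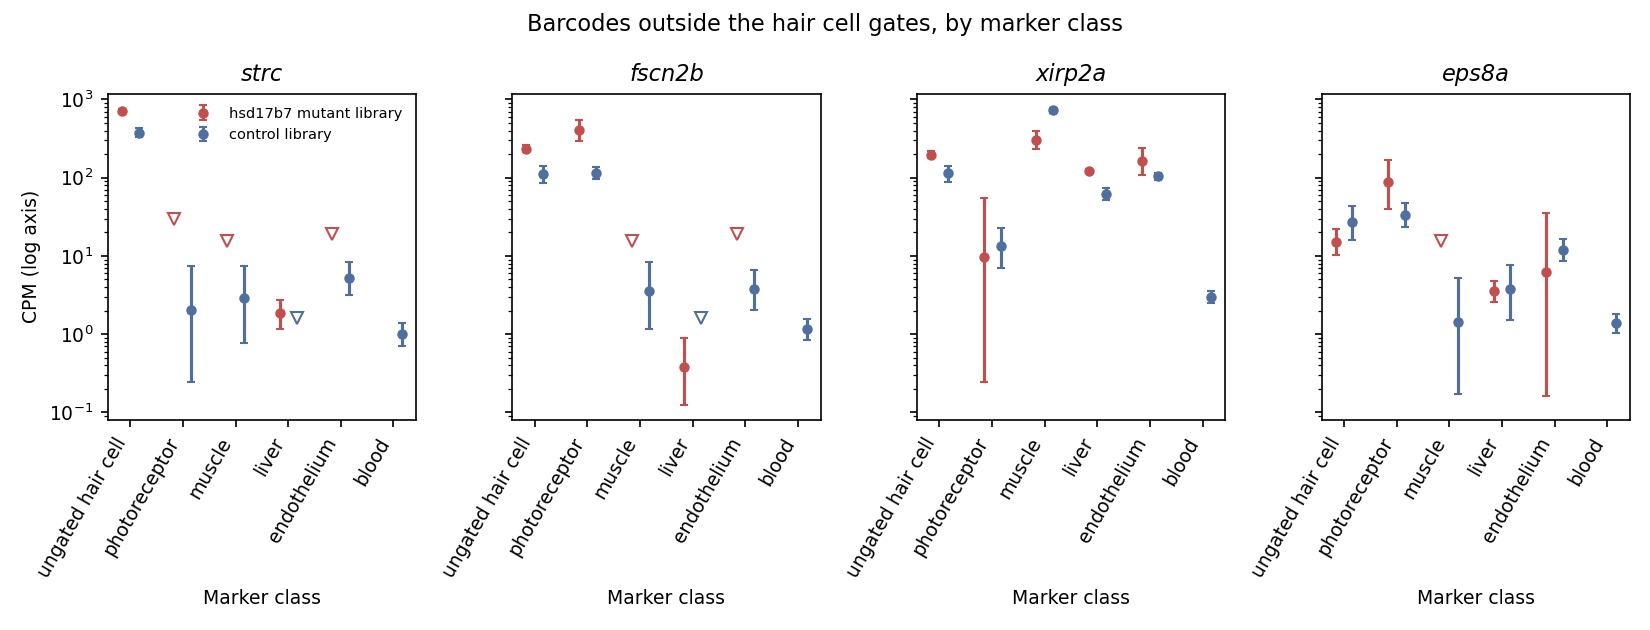
Level in CPM on a log axis of *strc*, *fscn2b*, *xirp2a* and *eps8a* in 6 classes of barcodes outside the hair cell gates, with exact Poisson 95% intervals, and open triangles at the limit of 3 UMIs where a class had 0 UMIs. Classes of fewer than 20 barcodes are not drawn. *strc* is high only in ungated HCs, *fscn2b* and *eps8a* also in photoreceptor-type barcodes, and *xirp2a* in muscle, liver and endothelium.

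Some members were also measured in classes far from HCs. *xirp2a* stood at 306 CPM in 23 muscle-type barcodes of the mutant library (interval 234 to 394) and 724 CPM in 100 of the control library (680 to 770), both above its IEHC level. It was at 122 CPM in 383 mutant and 62.0 CPM in 74 control liver-type barcodes, where 91.6% and 59.5% had a UMI, and at 164 CPM in 20 mutant and 105 CPM in 232 control endothelium-type barcodes. In blood barcodes of the control library *xirp2a* was at 3.01 CPM, so these levels were not an even background. Liver-type barcodes alone held 27.1% of the *xirp2a* UMIs of the mutant library, and muscle-type barcodes 13.7% of those of the control library. The fascin and Eps8 genes were present in photoreceptor-type barcodes, 23 in the mutant and 112 in the control library. There *fscn2b* stood at 409 CPM in the mutant and 115 CPM in the control library, *eps8a* at 87.6 CPM and 33.6 CPM, and *fscn2a* at 39.0 CPM (4 UMIs) and 10.2 CPM (10 UMIs). Photoreceptor-type barcodes were the class of at least 20 barcodes with the highest *fscn2a* level in both libraries. *eps8a* had a UMI in 18.4% of 38 mutant and 37.7% of 53 control barcodes of lateral line supporting cell type, against 18.6% of mutant and 31.4% of control LLHCs, so its LLHC share was not above that of the supporting cells.

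For each member, the genes most alike in level were sought over 15 HC subgroups, split by gate, *atoh1a*, *s100s* against *cabp5b* and library, among 9993 genes. These subgroups share their libraries and the gating genes, and the correlations are descriptions. For *fscn2b* they were the ATP synthase subunit genes *atp5l* (Pearson r = 0.98) and *atp5md* (0.97), and for *strc* they were *si:dkey-266m15.7* (0.97) and the purine nucleoside phosphorylase gene *pnp6* (0.96). For *xirp2a* they were the serine protease gene *tmprss3a* (0.95) and *elovl8a* (0.94), and for *twf2b* the neurotrophin gene *bdnf* (0.96) and *si:ch211-147d7.5* (0.94). For *gipc3* they were *eif4ebp1* (0.97) and *ap1s1* (0.96), for *loxhd1a* *lmo1* (0.94) and *ksr1b* (0.93), and for *eps8a* *zfand5b* (0.88) and *znfx1* (0.87). No 2 members had the same gene among these, and *fscn2a*, with 3 UMIs in all HCs, could not be ranked.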

How the data were processed

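The 2 matrices hold raw UMI counts per gene and barcode, deposited by the authors. Their headers name Cell Ranger 9.0.1 for the mutant and 7.1.0 for the control library, and the submitters' processing notes name GRCz11 and Seurat. No column of another sample was used. Symbols are those of the deposited tables, which pair them with Ensembl identifiers, and no coordinates or sequences are given. Barcode lists and feature names, deposited beside the counts, served only as labels.

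Counts were summed per gate and library in Python 3.11.15 with numpy 2.4.6, scipy 1.17.1 and pandas 2.3.3. Intervals at 95% are exact (Poisson for CPM, conditional binomial for ratios, Clopper-Pearson for shares) and cover counting error only. A gene with 0 UMIs entered at 3 UMIs as a limit, and no fold was formed where both sides held 3 UMIs or fewer. Past 2-fold was read among features with at least 50 UMIs on both sides together. Barcodes outside the gates were typed as blood with at least 20% of UMIs in the blood list, otherwise by the list with the highest fold of at least 5 with 3 markers detected. Likeness used log2(CPM + 10), for genes with at least 200 HC UMIs, over subgroups of at least 10 cells. Genes named were the members, their paralogs, the 3 highest and 3 lowest of the bundle list in a comparison, and the 2 most alike per member. The interval function was tested on simulated data. Predicted doublets (Scrublet, scanpy 1.11.5) were left out only as an alternative. Reads of near-identical paralogs could be split by the authors' counting. The members and lists were chosen with earlier results of these data known.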

Additional observations from a re-analysis of the deposited data

Results flagged for a closer look

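*fscn2b* moved in opposite directions between the libraries when inner ear hair cells with more *s100s* were set against those with more *cabp5b* UMIs. The log2 ratio was -0.26 (interval -0.39 to -0.13) in the mutant library, with 221 CPM on the *s100s* side and 265 CPM on the *cabp5b* side, and 0.31 (0.13 to 0.48) in the control library, with 130 CPM and 105 CPM. Both intervals excluded 0 and cover counting error only. With 1 library per genotype the difference was not tested.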

How the results depend on the processing

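Ratios were recomputed with a *myo6b* minimum of 5, all deposited barcodes, a minimum of 1000 genes with a 10% limit on mitochondrial UMIs, predicted doublets left out (126 mutant and 204 control barcodes), totals without globin and mitochondrial UMIs, the median ratio of genes set to 0, means of single cells, cells thinned to 4000 UMIs, *atoh1a* of at least 2 against 0, and, chosen after seeing the data, without the cell with the most UMIs of each member. All 74 alternative medians kept their sign, and 64 moved by less than the counting interval. The mutant median of HCs over other barcodes was 3.30 with the *myo6b* minimum of 5, 3.52 with the stricter cell filter, 3.64 with the median set to 0, 3.10 with means of cells and 3.09 thinned, against 3.39, and the control one was 4.38 without globin and mitochondrial UMIs, against 4.56. The mutant over control median in IEHCs was 0.42 with means of cells and 0.44 thinned, against 0.53. The LLHC over IEHC median of the mutant library was -1.42 thinned, against -1.97, and the *atoh1a* median of its IEHCs was -0.94 with *atoh1a* of at least 2, against -0.77. Of 524 single gene values 517 kept their sign. The 7 others were *loxhd1a* (3), *eps8a* (2) and *twf2b* (2), none of them past 2-fold. Thinning left no value of *strc* for mutant LLHCs over IEHCs. The cause of these changes was not tested. No paired analysis was possible because each genotype had 1 library.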
